A study of Mus musculus with 21 samples.

Results

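The 9 genes followed here belong to transforming growth factor beta (TGF-beta) and YAP signalling and were read in mouse mammary organoids. They are the ligand genes Tgfb1, Tgfb2 and Tgfb3, the receptor gene Tgfbr2, the activin subunit gene Inhba, the matricellular genes Thbs1, Ccn1 (also Cyr61) and Ccn2 (also Ctgf), and Ankrd1. The genes were taken from a list of names and matched by GENCODE vM21 symbol, which gave 9 of 9 members among 55536 gene IDs. The organoids were primary cultures of mammary epithelia, either wild type (WT) or homozygous for the ATLD1 allele of Mre11 (Mre11 ATLD1/ATLD1, called ATLD here). Mre11 is a nuclease that acts on broken DNA, and ATLD stands for ataxia-telangiectasia-like disorder. Polyadenylated RNA was sequenced at day 0, day 14 and day 28 of activation of neuT, an oncogenic form of the receptor gene Erbb2 that every group was set up to activate. Each of the 6 groups had 3 original libraries, and the replicate 1 libraries of the 3 WT days have a second run in the batch that holds the ATLD libraries, which gives 21 libraries. The sources used here do not give how neuT was driven, the mouse strain, the age of the animals or whether replicates came from different animals. The p-values therefore measure the spread between these cultures, which may be partly technical.

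TGF-beta ligands are secreted in a latent form bound to matrix, and once released they bind the type II receptor encoded by Tgfbr2, which recruits a type I receptor that phosphorylates SMAD2 and SMAD3. Activins, dimers of inhibin beta subunits, use their own receptors and reach the same SMAD proteins. YAP and its relative TAZ enter the nucleus when the Hippo kinases are inactive and bind TEAD factors, and Ccn1, Ccn2 and Ankrd1 are standard readouts of that activity. Ccn2 and Thbs1 also respond to TGF-beta, and thrombospondin 1, the product of Thbs1, can release TGF-beta from its latent form. In the mammary gland TGF-beta is known for restraining growth of the ducts and, in involution, for promoting cell death.

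The libraries held 30905703 to 51757203 counts in genes, and all 9 genes passed the filter on low counts. Ankrd1 was nearly absent from WT libraries after day 0 and passed through the other groups. Mre11a, the altered gene, lay between 42.2 and 58.6 counts scaled to library size (CPM, with TMM scaling) in the 12 WT libraries and between 14.1 and 17.05 in the 9 ATLD libraries. Erbb2 lay between 69.0 and 146 CPM in WT and between 72.2 and 114 in ATLD, over all days. Its mean over the original libraries at days 0, 14 and 28 was 89.7, 93.4 and 111.9 CPM in WT. In ATLD it was 91.1, 81.1 and 85.3 CPM. Whether reads of neuT were counted under Erbb2 is not known here. The 6 markers of luminal cells in general, among them Krt8 and Krt18, summed to at least 1142 CPM in every original library. The 10 fibroblast markers summed to 19.1 to 57.6 CPM in WT and 11.7 to 31.9 in ATLD. The 8 leukocyte markers summed to 6.76 to 12.03 CPM in WT and 2.22 to 3.34 in ATLD. Of 8 lung epithelium markers, Sftpc had group means of 5.09 to 7.94 CPM in WT and 0.0372 to 0.119 in ATLD. Sftpa1 had 1.17 to 1.71 CPM in WT and 0 in ATLD, while Sftpd was higher in ATLD at every day. The source of these reads was not tested. The 8 markers of luminal progenitors differed widely between groups, with none at 0 in any group. Their sum was 11240 to 11890 CPM in WT day 0, 322 to 338 in WT day 14 and 370 to 457 in WT day 28, against 17250 to 20560, 14790 to 18660 and 36300 to 40090 in ATLD at day 0, 14 and 28. In bulk RNA, fewer cells of a type and less RNA per cell cannot be told apart. In 3 WT libraries, replicates 1 and 3 of day 14 and replicate 2 of day 28, GC-rich genes were lower relative to GC-poor ones than in the other libraries (-1.21, -1.19 and -0.98 in log2, against -0.66 to 0.84).

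Promoter sequence is shown for the 3 members with the sharpest WT decrease that had an entry in the RefSeq promoter table (build GRCm38.p6), which matched 6 of the 9 genes. Tgfb3, Thbs1 and Ccn2 had no entry. The windows are the 250 bases before the RefSeq start, printed 5′ to 3′ along the gene. Capitals mark the TEAD motif GGAATG and the SMAD motif CAGAC, searched on both strands. For Ankrd1 only stretches of 30 bases around matches are printed, because its window lies in an annotated 5′ UTR of GENCODE vM21 (minus strand, chr19:36120037-36120066 and chr19:36119957-36119986).
Ankrd1 upstream site: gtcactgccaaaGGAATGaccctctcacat
Ankrd1 downstream site: cttccCAGACactaaGTCTGGAATGaaaat
Ccn1 (minus strand, chr3:145649986-145650235): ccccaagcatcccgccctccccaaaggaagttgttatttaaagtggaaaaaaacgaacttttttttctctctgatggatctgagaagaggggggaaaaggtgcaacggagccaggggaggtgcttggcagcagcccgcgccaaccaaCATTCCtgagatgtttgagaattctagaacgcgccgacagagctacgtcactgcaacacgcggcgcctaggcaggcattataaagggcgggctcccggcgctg
Tgfb2 (minus strand, chr1:186705990-186706239): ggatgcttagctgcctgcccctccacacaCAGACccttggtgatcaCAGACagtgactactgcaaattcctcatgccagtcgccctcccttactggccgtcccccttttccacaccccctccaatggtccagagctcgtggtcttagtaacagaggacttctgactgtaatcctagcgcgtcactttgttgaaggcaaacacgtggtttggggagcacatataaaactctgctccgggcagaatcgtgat
Ankrd1 held 2 TEAD matches and 2 SMAD matches, of which the downstream SMAD match, GTCTG, overlaps the TEAD match next to it. Ccn1 held 1 TEAD match, 97 bases before the start, and Tgfb2 held 2 SMAD matches, 216 and 199 bases before it. Of all 32851 windows of this length, 12.6% held the TEAD motif and 42.2% the SMAD motif. Tgfbr2 held 1 SMAD match, and Tgfb1 and Inhba held neither motif. The AP-1 motif TGANTCA (6.75% of windows) and the CArG box (1.47%) matched none of the 6 windows. A match of these letters is a description of the window and not evidence of binding.

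Between day 0 and the later days, several of these genes moved in opposite directions in the 2 genotypes. In WT, 5 of the 9 members fell by day 14 and 0 rose, where 30.3% of all 18684 genes tested passed the same threshold, 15.1% lower and 15.2% higher (edgeR quasi-likelihood test, Benjamini-Hochberg adjusted p under 0.05). The 5 were Tgfb2, Tgfb3, Ccn1, Ccn2 and Ankrd1. At day 28 against day 0 in WT, 4 fell and 1, Tgfb1, rose (24.7% of all genes passed, 12.4% lower and 12.3% higher). Between day 14 and day 28 in WT only Ccn1 passed, and it rose (0.905% passed, 0.53% higher and 0.375% lower). In ATLD, 6 members passed at day 14 against day 0, 3 higher and 3 lower (11.7% of all genes, 5.18% higher and 6.49% lower). That count was 3 to 4 in the fits that left out 1 culture. At day 28 against day 0 in ATLD, 7 passed, 3 higher and 4 lower (29.8%, 14.1% higher and 15.7% lower). At day 28 against day 14 in ATLD, 4 passed, 2 in each direction (17.3%, 8.25% higher and 9.05% lower). Tgfb3 and Ccn2 thus fell by day 14 in WT and rose in ATLD, though the ATLD rise of Tgfb3 lost its call in most fits that left out 1 culture. The difference itself, the genotype by time term, passed for 5 members at day 14, all of them higher in ATLD relative to WT (21.3% of all genes, 10.8% higher and 10.6% lower). At day 28 it passed for 5 members, 4 higher and 1, Thbs1, lower (27.5%, 13.5% higher and 14% lower). Groups of 3 original cultures did not overlap for 6 members in WT at day 14 against day 0 (42.5% of all genes), 8 at day 28 against day 0 (42.1%) and 3 at day 28 against day 14 (12%). In ATLD the same counts were 6 (27.5%), 6 (44.4%) and 5 (38.5%). The median log2 change of the members was -0.60 in WT and -0.21 in ATLD at day 14, while the median over all genes lay between -0.07 and 0.02 in all 11 comparisons. Genotype comparisons share the WT and ATLD groups with the comparisons of days and with the genotype by time terms, so these are not separate evidence.

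**Figure D1:**
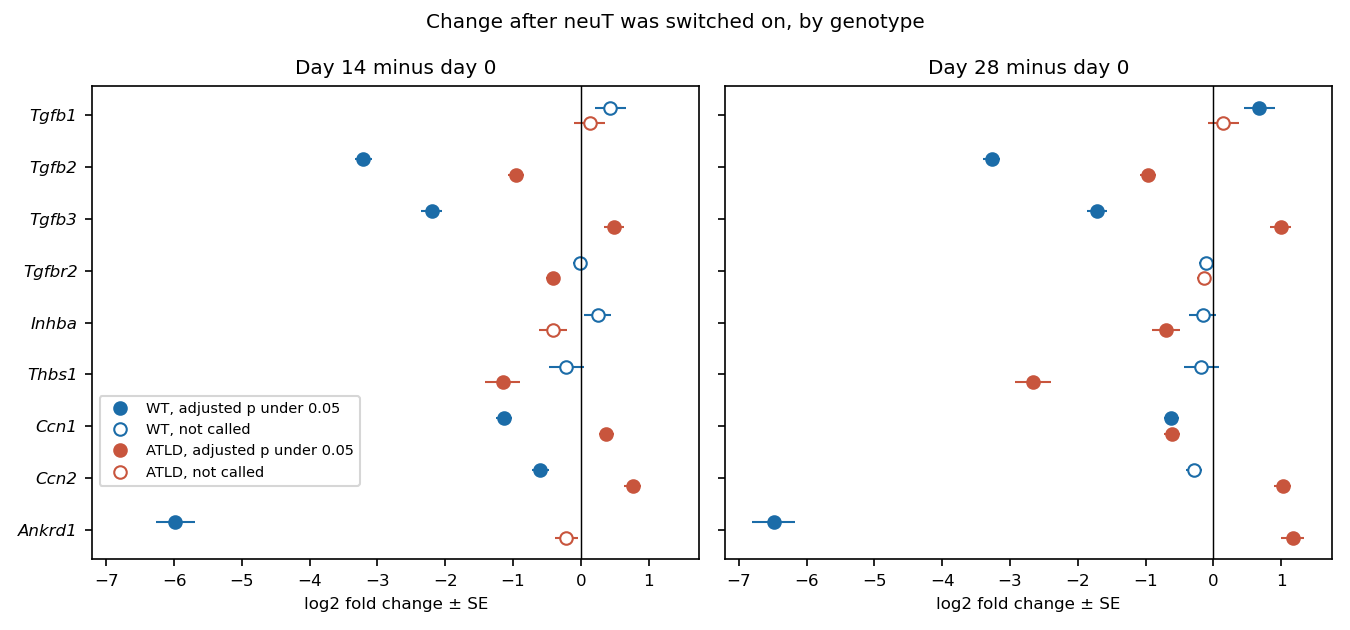
Log2 fold change ± SE (x axis) of each member (y axis) at day 14 and day 28 against day 0, in WT (blue) and ATLD (red). Filled symbols have an adjusted p under 0.05. Tgfb2, Tgfb3 and Ankrd1 lie far to the left in WT, and Thbs1 does so in ATLD.

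Of the ligands, Tgfb2 (ENSMUSG00000039239, mm10 chr1:186622792-186705989, minus strand) fell most in WT. Its level was 47.5, 44.1 and 40.8 CPM in the WT day 0 cultures, 4.73, 4.62 and 4.97 at day 14, and 4.34, 5.01 and 4.37 at day 28. The ATLD cultures held 101.06, 87.0 and 90.3 CPM at day 0, 53.0, 47.2 and 43.3 at day 14, and 42.1, 45.3 and 55.5 at day 28. All later WT libraries lay well below every other library, and ATLD after activation overlapped WT before it. The fall was 9.24-fold in WT at day 14 (log2 -3.21 ± 0.13 SE, adjusted p = 5.12e-12) and 1.94-fold in ATLD (log2 -0.95 ± 0.12, adjusted p = 2.69e-05). From day 14 to day 28 neither genotype passed (log2 -0.06 ± 0.12 in WT and -0.01 ± 0.11 in ATLD). ATLD exceeded WT at day 0 by 1.94-fold (log2 0.95 ± 0.13), at day 14 by 9.54-fold and at day 28 by 9.32-fold.

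Tgfb3 (ENSMUSG00000021253, chr12:86056745-86079041, minus strand), which encodes the ligand most abundant per unit of gene length here, moved in opposite directions. WT cultures held 252, 277 and 288 CPM at day 0, 50.4, 73.0 and 54.2 at day 14, and 90.1, 67.8 and 91.2 at day 28. ATLD cultures held 356, 307 and 290 CPM at day 0, 458, 444 and 430 at day 14, and 583, 576 and 733 at day 28. The ATLD days did not overlap each other. Every ATLD library exceeded every original WT library, but the resequenced WT day 0 run, from the same batch as ATLD, held 308 CPM, above ATLD day 0 replicates 2 and 3. In WT the gene fell 4.602-fold by day 14 (log2 -2.20 ± 0.15, adjusted p = 5.74e-09) and stood 3.28-fold below day 0 at day 28. In ATLD it rose 1.40-fold by day 14 (log2 0.48 ± 0.15, adjusted p = 0.0424) and 1.99-fold by day 28 (log2 0.99 ± 0.15, adjusted p = 7.62e-05). The ATLD rise at day 14 did not pass in 5 of the 6 fits that left out 1 culture (adjusted p 0.085 to 0.149, all but the fit without ATLD day 0 replicate 1). From day 14 to day 28 in ATLD it passed (0.51 ± 0.15, adjusted p = 0.0252), but in 2 of 6 such fits only (not without ATLD day 14 replicate 1, 2 or 3 or ATLD day 28 replicate 3, adjusted p 0.0605 to 0.126). At day 0 the genotypes could not be separated once the sequencing batch was a term (log2 -0.01 ± 0.16, adjusted p = 0.979), whereas ATLD was 6.18-fold higher at day 14 and 6.49-fold at day 28. The gene Ttll5 lies over Tgfb3 on the other strand, with 50240 counts to 263713 for Tgfb3, and the strand setting of the counting is not given in the sources used here.

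Tgfb1 (ENSMUSG00000002603, chr7:25687002-25705077, plus strand), the founding ligand gene of the family, varied widely within the WT days after activation. It stood at 30.4, 35.0 and 37.1 CPM in WT day 0, at 34.1, 69.0 and 35.6 in WT day 14, and at 60.7, 38.2 and 65.2 in WT day 28. All ATLD libraries fell within 39.4 to 53.6 CPM. The WT days were thus split within themselves, and the low cultures of days 14 and 28 were the 3 libraries low in GC-rich genes. A rise of 1.602-fold from day 0 to day 28 in WT passed (log2 0.68 ± 0.23, adjusted p = 0.0375), but it passed in only 1 of 6 fits that left out a culture, that without WT day 28 replicate 2 (others: adjusted p 0.0669 to 0.169). Without the 3 libraries low in GC-rich genes, an alternative chosen after seeing the data, the change at day 14 was 0.98 ± 0.14 (adjusted p = 6.46e-05) in place of 0.44 ± 0.23 (adjusted p = 0.167). The resequenced WT runs gave 58.9, 93.3 and 82.1 CPM at days 0, 14 and 28, above the original run of the same culture each time. ATLD was accordingly lower than WT at day 14 with the batch term (log2 -0.82 ± 0.24, adjusted p = 0.00601) and in the second batch alone (-0.91 ± 0.15), but not with the 18 original libraries and no batch term (0.03 ± 0.23). At day 28 the same 3 values were -0.94 ± 0.25, -0.74 ± 0.15 and -0.20 ± 0.23. In ATLD no time comparison of Tgfb1 passed.

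Per kilobase of gene length, the 3 ligand genes together fell in WT and rose in ATLD. Their summed level was 88.7, 96.5 and 99.6 CPM per kb in WT day 0, 22.5, 36.1 and 23.9 at day 14 and 39.4, 28.5 and 40.7 at day 28. In ATLD it was 132, 115 and 109 at day 0, 153, 149 and 144 at day 14, and 190, 187 and 236 at day 28. The groups did not overlap in the 5 pairs of days tested. The exact permutation p (two-sided) was 0.1 in each, the smallest that 3 against 3 allows, and 0.111 after Benjamini-Hochberg adjustment over 10 comparisons of such derived values. Tgfb3 held 84.8% ± 0.80 (SD, n = 3) of the summed level in WT day 0, 64.3% ± 3.92 at day 14 and 68.1% ± 2.06 at day 28. In ATLD its share was 79.2% ± 0.73, 88.1% ± 0.22 and 91.3% ± 0.66. The share of Tgfb1 in WT went from 7.13% ± 0.29 to 32.5% ± 4.72 at day 14, while that of Tgfb2 went from 8.07% ± 1.10 to 3.14% ± 0.81.

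**Figure D2:**
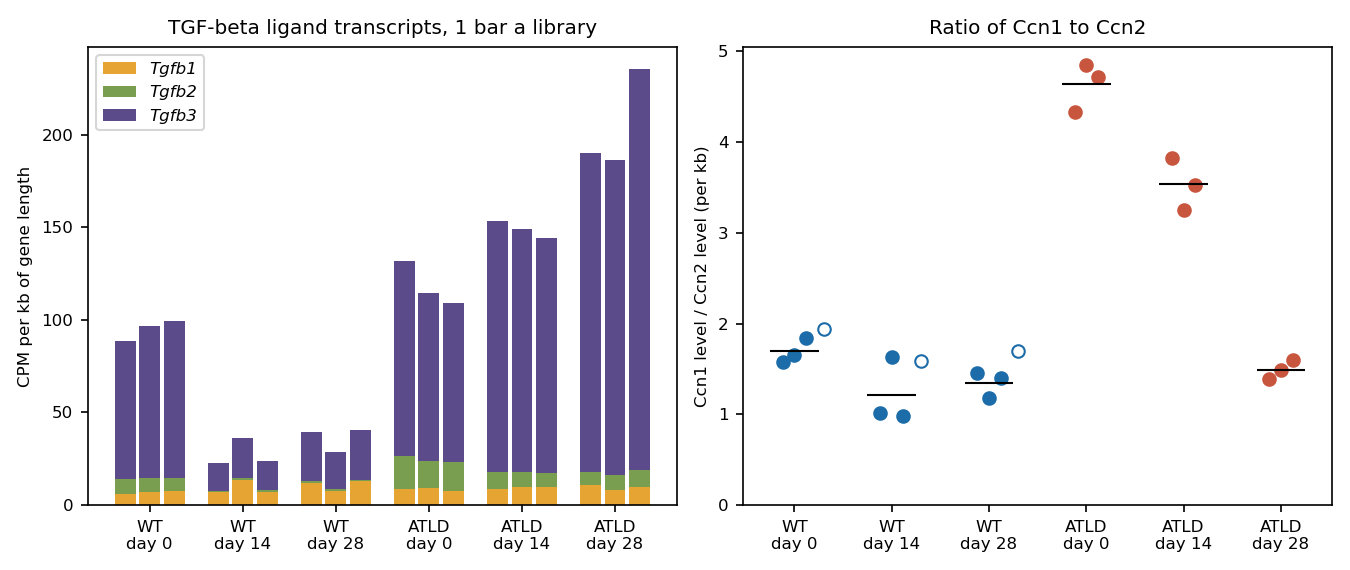
Left, level of Tgfb1, Tgfb2 and Tgfb3 in CPM per kb of gene length, stacked, with 1 bar for each original library. Right, ratio of the Ccn1 to the Ccn2 level per kb in each library, with the mean as a line and resequenced WT runs as open circles. The stacked level is lowest in WT days 14 and 28 and highest in ATLD day 28, and the ratio is highest in ATLD days 0 and 14.

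Genes that store and activate TGF-beta included some of the largest movements around the ligands. Of 12 such genes, 4 fell and 0 rose in WT at day 14 (median log2 -0.24), and 2 rose and 0 fell in ATLD (median 0.31). Over all genes, 15.1% fell and 15.2% rose in WT, and 5.18% rose and 6.49% fell in ATLD. The ATLD count of 2 ranged from 2 to 5 over the alternatives and the WT count of 4 from 3 to 6. Ltbp1, which encodes a latent TGF-beta binding protein, went from 93.6 ± 4.04 CPM in WT day 0 to 18.4 ± 0.77 at day 14 (log2 -2.35 ± 0.26) and 16.1 ± 1.01 at day 28 (SD, n = 3). Its relative Ltbp2 went from 103 ± 22.1 to 9.998 ± 2.44 CPM in WT at day 14 (log2 -3.36 ± 0.31) but from 118 ± 48.0 to 393 ± 66.5 in ATLD (log2 1.74 ± 0.28). Itgb5, an integrin subunit of the receptors that bind latent TGF-beta, rose in ATLD from 91.3 ± 18.3 to 194 ± 11.1 CPM at day 14 (fitted log2 1.09, and -0.64 in WT). Lrrc32, which tethers latent ligand to the cell surface, rose in WT by day 28 from 15.3 ± 3.25 to 36.3 ± 10.1 CPM (fitted log2 1.25, and -0.10 in ATLD). At day 14 ATLD exceeded WT in Ltbp1 (log2 3.97 ± 0.28) and Ltbp2 (4.79 ± 0.34), as it did in Tgfb2 and Tgfb3. Ltbp1 was already higher in ATLD at day 0, at 369 ± 119.8 CPM (log2 1.85 ± 0.27). Ltbp4, another gene of the family, was lower in ATLD at day 14 (4.71 ± 1.15 against 30.4 ± 24.9 CPM, log2 -3.66 ± 0.55). The 10 fibroblast markers summed to 51.3 to 57.6 CPM in WT day 0, 19.1 to 21.6 in WT day 14 and 11.7 to 18.3 in ATLD day 0. In ATLD day 14, where Ltbp2 was highest, they summed to 20.99 to 24.6 CPM with Lum at 0. Their part in these results was not tested.

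Tgfbr2 (ENSMUSG00000032440, chr9:116084293-116175360, minus strand), the type II receptor gene, was lower in ATLD at every day. WT libraries held 260, 274 and 275 CPM at day 0, 263, 272 and 264 at day 14 and 260, 238 and 256 at day 28. ATLD libraries held 203, 172 and 160, then 146, 129 and 129, then 146, 159 and 181 CPM. No ATLD library reached the lowest WT library. The difference was 1.62-fold at day 0 (log2 -0.69 ± 0.11, adjusted p = 3.24e-05), 2.14-fold at day 14 and 1.64-fold at day 28. No pair of WT days passed, while ATLD fell 1.33-fold by day 14 (log2 -0.41 ± 0.10, adjusted p = 0.0131), a call that was lost without ATLD day 0 replicate 1 or ATLD day 14 replicate 2 or 3 (adjusted p 0.0641 to 0.0751). The genotype by time term at day 14 was -0.39 ± 0.15 and did not pass (adjusted p = 0.0682). It passed with GC offsets (-0.44 ± 0.12), with all 21 libraries, with DESeq2 and without ATLD day 0 replicate 3 (adjusted p 0.00746 to 0.0386).

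Most other receptor genes were also lower in ATLD. Of 12 TGF-beta, activin and BMP receptor genes, 9 were lower and 2 higher in ATLD at day 14 (median log2 -0.68), where 35% of all 18844 genes were lower and 30.1% higher. Acvr1b, an activin type I receptor gene, stood at 40.7 ± 5.77 CPM in ATLD and 167 ± 26.5 in WT at day 14 (log2 -2.26 ± 0.21). Tgfbr3, the gene of betaglycan, a co-receptor that presents ligand to Tgfbr2, stood at 29.95 ± 3.56 against 88.9 ± 7.14 CPM. Bambi, a decoy receptor gene, was higher in ATLD (31.5 ± 2.10 against 17.9 ± 2.27 CPM). Among 18 genes of SMADs and their regulators, 9 were lower and 2 higher in ATLD at day 14, a count of 11 that ranged from 6 to 12 over the alternatives. Pmepa1, a TGF-beta target that limits SMAD signalling, was among the higher ones. It fell in WT from 563 ± 72.0 to 258 ± 65.9 CPM by day 14 (log2 -1.12 ± 0.17) and rose in ATLD from 314 ± 54.6 to 850 ± 42.4 (log2 1.44 ± 0.17) and then to 1273 ± 79.0 at day 28.

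Inhba (ENSMUSG00000041324, chr13:16011851-16031621, plus strand), the inhibin beta A gene from which activin A is made, separated the genotypes before neuT was active. It stood at 157, 140 and 140 CPM in WT day 0, 192, 143 and 185 in WT day 14 and 127, 146 and 120 in WT day 28. ATLD held 15.1, 10.9 and 9.38 CPM at day 0, 8.23, 8.56 and 9.84 at day 14 and 4.80, 9.45 and 7.57 at day 28. The highest ATLD library was far below the lowest WT library. ATLD was 11.2-fold lower at day 0 (log2 -3.48 ± 0.22, adjusted p = 5.56e-10), 17.2-fold at day 14 and 16.1-fold at day 28. No pair of WT days passed. In ATLD the level at day 28 was 1.62-fold below day 0 (log2 -0.70 ± 0.21, adjusted p = 0.0175), with overlapping groups. That call was lost without ATLD day 0 replicate 1 (adjusted p = 0.107) or without ATLD day 28 replicate 1 (adjusted p = 0.0854), and the genotype by time terms of Inhba did not pass (-0.66 and -0.54, adjusted p 0.119 and 0.185).

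Of 16 genes of other activins, growth and differentiation factors, BMPs and their antagonists, 11 passed the filter on low counts. At day 0, 4 of these were higher and 5 lower in ATLD (26.1% and 29.5% of all genes). Inhbb, the beta B subunit gene, was lower in ATLD at day 0 too, at 176 ± 59.3 against 422 ± 33.6 CPM (log2 -1.58 ± 0.23). Within ATLD it rose from day 0 to day 28, to 293 ± 62.1 CPM. Fst, the gene of the activin antagonist follistatin, rose in WT by day 14 from 126 ± 2.18 to 289 ± 9.89 CPM (log2 1.20 ± 0.10) and in ATLD from 102 ± 13.0 to 155 ± 15.3. In ATLD it then fell to 58.2 ± 4.31 CPM at day 28. Bmp7, a BMP ligand gene, rose in WT by day 14 from 41.2 ± 4.07 to 117 ± 42.3 CPM and fell in ATLD from 27.8 ± 1.94 to 10.3 ± 1.73.

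Thbs1 (ENSMUSG00000040152, chr2:118111876-118127133, plus strand), the thrombospondin 1 gene, fell with time in ATLD, while its changes in WT did not pass. WT held 948, 934 and 948 CPM at day 0, 774, 873 and 794 at day 14, and 898, 753 and 851 at day 28. ATLD held 929, 632 and 475 CPM at day 0, 419, 240 and 258 at day 14, and 74.3, 94.7 and 153 at day 28. The ATLD days did not overlap, the later WT days lay below WT day 0, and ATLD replicate 1 of day 0 stood close to the WT cultures of that day. The fall in ATLD was 2.22-fold by day 14 (log2 -1.15 ± 0.26, adjusted p = 0.00604) and 6.32-fold by day 28 (log2 -2.66 ± 0.27, adjusted p = 1.20e-06). In WT the changes were -0.21 ± 0.26 and -0.18 ± 0.26 in log2. These SE use a spread shared by both genotypes, while the SD at day 0 was 7.81 CPM in WT and 230 in ATLD. The genotype by time term passed at day 28 (-2.48 ± 0.37, adjusted p = 5.37e-05) and not at day 14 (-0.94 ± 0.36, adjusted p = 0.0796), where it passed in 6 of 22 alternatives (adjusted p 0.019 to 0.0349). These were the fits without ATLD day 14 replicate 1 (-1.23 ± 0.35) or ATLD day 0 replicate 3 (-1.14 ± 0.35), with all 21 libraries, with no filter, and with GC offsets with or without a replicate block. ATLD was lower than WT by 2.85-fold at day 14 and by 8.16-fold at day 28, whereas at day 0 the difference did not pass (log2 -0.56 ± 0.27, adjusted p = 0.0843) although the groups did not overlap, and passed without ATLD day 0 replicate 1 (-0.85 ± 0.27, adjusted p = 0.0122). The 12 basal and myoepithelial markers moved in ATLD as well. They summed to 3878 to 4201 CPM at day 0, 2589 to 2622 at day 14 and 2066 to 2283 at day 28, with 7 of 12 lower and 1 higher at day 14 and none at 0. Their part in the fall of Thbs1 was not tested.

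Of 8 relatives of Thbs1 and of the CCN genes, 4 passed the filter on low counts. Ccn5, a CCN family gene whose product lacks the C-terminal domain of Ccn1 and Ccn2, is one of them. It fell in WT from 8.20 ± 0.77 to 0.596 ± 0.20 CPM by day 14 (log2 -3.80 ± 0.24) and stood at 2.24 ± 0.57 at day 28. In ATLD it rose from 11.9 ± 1.89 to 21.6 ± 3.60 and 112 ± 17.1 CPM (log2 3.23 ± 0.21 from day 0 to day 28).

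Ccn1 (ENSMUSG00000028195, chr3:145646976-145649981, minus strand), an early YAP and TEAD target that encodes a matricellular integrin ligand, fell in WT and went up and then down in ATLD. WT held 145, 143 and 166 CPM at day 0, 66.2, 79.3 and 61.9 at day 14, and 113, 88.4 and 94.2 at day 28. ATLD held 211, 195 and 198 CPM at day 0, 262, 270 and 250 at day 14, and 138, 119 and 139 at day 28. All 6 groups stood apart from their neighbours in rank, with ATLD day 14 highest and WT day 14 lowest. WT fell 2.19-fold by day 14 (log2 -1.13 ± 0.12, adjusted p = 6.43e-07) and stood 1.54-fold below day 0 at day 28. The partial return between those days (log2 0.51 ± 0.11, adjusted p = 0.0435) passed without WT day 14 replicate 2 or WT day 28 replicate 2 and in none of the other 4 fits that left out a culture (adjusted p 0.143 to 0.365). ATLD rose 1.30-fold by day 14 (log2 0.38 ± 0.11, adjusted p = 0.0411), which passed in none of the 6 fits that left out a culture (adjusted p 0.0665 to 0.129), and then fell 1.98-fold by day 28 (log2 -0.98 ± 0.12, adjusted p = 2.04e-05). Relative to day 0, the day 28 changes of the genotypes were nearly the same size, -0.62 ± 0.11 in WT and -0.61 ± 0.11 in ATLD (genotype by time 0.01 ± 0.16). ATLD exceeded WT 3.25-fold at day 14, and at days 0 and 28 the differences of 0.24 ± 0.12 and 0.22 ± 0.12 did not pass (adjusted p 0.104 and 0.124). Both passed with GC offsets (0.45 ± 0.09 and 0.44 ± 0.09), which also raised the median log2 difference over all genes. That median went from -0.04 to 0.19 at day 0 and from -0.05 to 0.24 at day 28.

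Ccn2 (ENSMUSG00000019997, chr10:24595442-24598683, plus strand), the connective tissue growth factor gene, rose in ATLD where Ccn1 did not stay up. WT held 130, 122 and 128 CPM at day 0, 92.6, 68.7 and 89.8 at day 14, and 110, 106 and 95.5 at day 28. ATLD held 68.9, 56.8 and 59.3 CPM at day 0, 97.0, 118 and 100.4 at day 14, and 141, 113 and 123 at day 28. ATLD before activation was the lowest group together with WT day 14, which it touched, and ATLD day 28 overlapped WT day 0. WT fell 1.51-fold by day 14 (log2 -0.60 ± 0.12, adjusted p = 0.00135), and ATLD rose 1.70-fold (0.77 ± 0.13, adjusted p = 0.000447) and 2.04-fold by day 28 (1.03 ± 0.13, adjusted p = 9.43e-06). The genotype difference changed sign with time: ATLD was 1.88-fold lower at day 0, 1.38-fold higher at day 14 and 1.32-fold higher at day 28, each past the threshold. The day 28 difference (0.40 ± 0.13, adjusted p = 0.0113) did not pass without WT day 28 replicate 1 or ATLD day 28 replicate 1, in the second batch alone, or with no batch term (adjusted p 0.0527 to 0.0607). The ratio of Ccn1 to Ccn2 per kb was 4.64 ± 0.27 in ATLD day 0, 3.54 ± 0.29 at day 14 and 1.49 ± 0.11 at day 28 (SD, n = 3). In WT it was 1.69 ± 0.14, 1.21 ± 0.37 and 1.35 ± 0.15. The 3 ATLD days did not overlap in this ratio (exact permutation p = 0.1 for each pair, the smallest possible).

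Ankrd1 (ENSMUSG00000024803, chr19:36111961-36120099, minus strand), which encodes a nuclear ankyrin repeat protein and is a sensitive YAP target, showed the widest range of the 9 genes. WT held 5.99, 5.74 and 5.86 CPM at day 0, 0.0916, 0.141 and 0.0421 at day 14, and 0.0928, 0 and 0.0844 at day 28. ATLD held 33.5, 27.7 and 27.2 CPM at day 0, 24.0, 23.3 and 29.1 at day 14, and 74.8, 64.4 and 59.5 at day 28. No ATLD library came near a WT library of its day. The original WT libraries together gave 759 counts at day 0, 13 at day 14 and 8 at day 28, and the resequenced runs gave 303, 0 and 7. The level was thus 65.3-fold lower at day 14 (95% interval 38.0 to 123) and 93.2-fold lower at day 28 (47.1 to 217); these exact intervals cover counting error only. In ATLD the change at day 14 did not pass (log2 -0.21 ± 0.17, adjusted p = 0.545), and at day 28 it was 2.25-fold above day 0 (1.17 ± 0.17, adjusted p = 7.32e-05). Before activation ATLD already exceeded WT 4.98-fold (log2 2.32 ± 0.32, adjusted p = 9.15e-06). The fitted log2 differences at day 14 (8.51 ± 0.41) and day 28 (9.56 ± 0.40) depend on the prior count, being 7.83 and 9.0 with a prior count of 2.

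In WT, Tgfb2, Tgfb3 and Ankrd1 fell while the luminal progenitor markers fell. All 8 of these markers were lower in WT at day 14 (median log2 -3.84) and at day 28 (-3.27), against 15.1% and 12.4% of all genes. In ATLD 2 rose and 1 fell at day 14 (5.18% and 6.49% of all genes), and 5 rose and 2 fell at day 28 (14.1% and 15.7%). By day 14 in ATLD, Tgfb2 fell 1.94-fold, Tgfb3 rose and the change of Ankrd1 did not pass. At day 14 all 8 markers were higher in ATLD than in WT (median log2 4.86, against 30.1% of all genes). Their part in the results for Tgfb2, Tgfb3 and Ankrd1 was not tested. Ltf, the gene nearest to Ankrd1 in pattern, is itself on that marker list. Saa2, the next nearest to Ankrd1, is not, nor are Ttpa and H2-Q2, the genes nearest to Tgfb2 and Tgfb3.

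**Figure D3:**
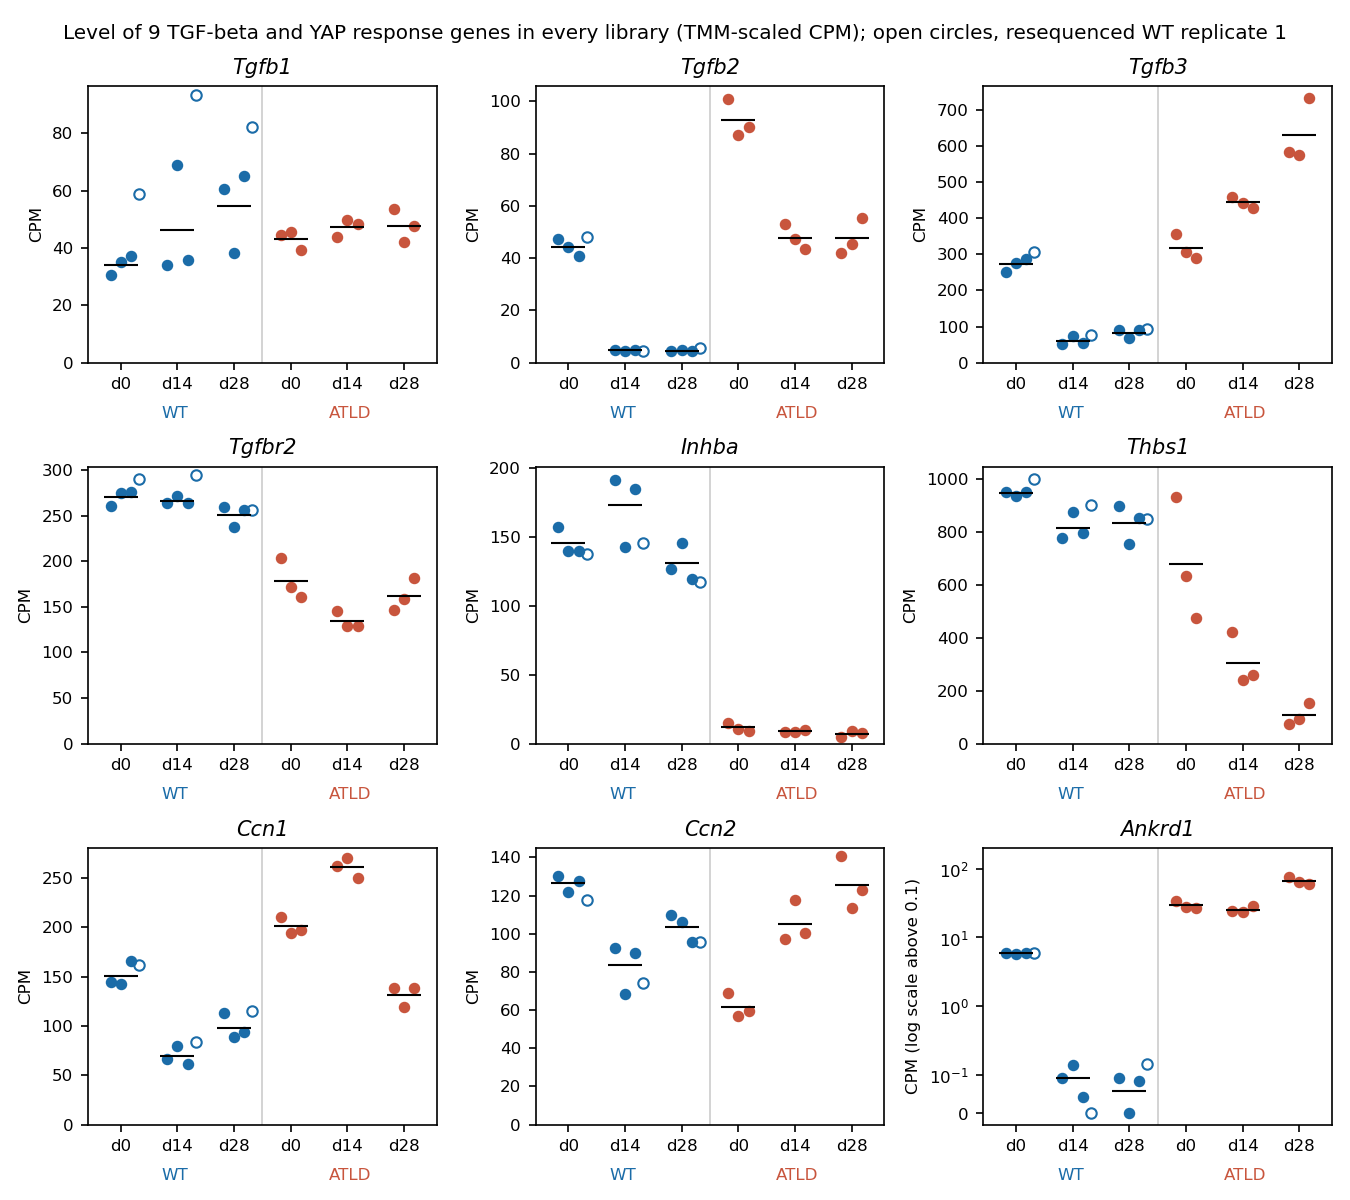
Level of each member in CPM (y axis, with a log scale above 0.1 for Ankrd1) in every library of the 6 groups. Filled circles are original libraries, open circles the resequenced run of WT replicate 1, and lines the mean of the original libraries. Inhba and Tgfbr2 separate the genotypes at every day, Thbs1 steps down through the ATLD days, and the open circles of Tgfb1 lie above the filled ones at each WT day.

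The genes most like each member were those with the smallest root mean square difference in log2 level over the 18 original libraries, each gene centred on its own mean, among 11376 genes. Tgfb2 was nearest to Ttpa, with a difference of 0.163 against a spread of Tgfb2 itself of 1.70. Tgfb3 was nearest to H2-Q2 (0.196 against 1.26) and Tgfbr2 to C2cd5 (0.0925 against 0.401). Inhba was nearest to Adgrg2 (0.330 against 2.04) and Thbs1 to Aspm (0.328 against 1.18), a mitotic spindle gene that went from 51.7 to 10.6 CPM in ATLD between days 0 and 28. Ccn1 was nearest to Cx3cl1 (0.212 against 0.643), Ccn2 to Card6 (0.2002 against 0.382) and Ankrd1 to Ltf (0.491 against 3.42). Tgfb1 was nearest to Lad1 (0.121 against 0.320). These are descriptions over libraries that share groups, and no member was the nearest gene of another because members were left out of the search.

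Known TGF-beta target genes outside the 9 did not move one way. Of 25 tested, 5 rose and 9 fell in WT at day 14 (median log2 -0.47), and 11 rose and 3 fell in ATLD (median 0.70). Over all genes, 15.2% rose and 15.1% fell in WT, and 5.18% rose and 6.49% fell in ATLD. The genotype by time term at day 14 was positive and past the threshold for 16 and negative for 4, against 10.8% and 10.6% of all genes. Fn1, the fibronectin gene, fell in WT from 114 ± 31.6 to 7.63 ± 1.63 CPM (log2 -3.90 ± 0.41) and was 189.8 ± 56.2 in ATLD at day 14. Hmga2, an architectural chromatin protein gene, went the other way in WT, from 0.155 ± 0.07 to 15.4 ± 1.51 CPM (log2 6.67 ± 0.29), and fell in ATLD from 3.37 ± 0.75 to 1.41 ± 0.28. In ATLD the metalloproteinase inhibitor gene Timp1 rose from 66.2 ± 2.91 to 228 ± 12.2 CPM by day 14 (log2 1.78), and its fitted change in WT was at least as large (log2 2.21). The inhibitor of differentiation gene Id1 rose in ATLD from 5.90 ± 1.19 to 30.1 ± 6.57 CPM by day 28. At day 28 the genotype by time term passed for 9 of the 25 as positive and 5 as negative (13.5% and 14% of all genes). From day 14 to day 28 in ATLD, 5 rose and 10 fell (median -0.49, 8.25% and 9.05% of all genes). That count of 15 ranged from 7 to 17 over the alternatives. Between genotypes at day 28, 11 were higher and 10 lower in ATLD (median -0.08, 29.3% and 34.9% of all genes).

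YAP target genes other than Ccn1, Ccn2 and Ankrd1 showed no common direction in WT either. Of 17 tested of a list of 18, 5 rose and 5 fell in WT at day 14 (median log2 -0.04), and 3 rose and 0 fell in ATLD (median -0.14), a count that ranged from 2 to 5 over the alternatives. Over all genes, 15.2% rose and 15.1% fell in WT and 5.18% rose and 6.49% fell in ATLD. Igfbp3, an insulin-like growth factor binding protein gene, fell in WT from 628 ± 20.9 to 183 ± 9.74 CPM (log2 -1.78 ± 0.10). Axl, a receptor tyrosine kinase gene, rose in WT from 173 ± 11.9 to 401 ± 66.7 CPM (1.22 ± 0.15). At day 28 against day 0, 5 of the 17 rose and 5 fell in WT (median 0.22, 12.3% and 12.4% of all genes). In ATLD 3 rose and 6 fell over the same days (median -0.18, 14.1% and 15.7% of all genes), a count of 9 that ranged from 6 to 9 over the alternatives. Between genotypes at day 14, 11 of the 17 were lower and 4 higher in ATLD (median -0.70; 35% and 30.1% of all genes), while Ccn1, Ccn2 and Ankrd1 were all higher. Axl stood at 80.5 ± 4.89 CPM in ATLD, and F3, the tissue factor gene, at 81.4 ± 6.69 against 22.01 ± 2.67 in WT (log2 2.03 ± 0.12). Among 26 genes of the Hippo pathway itself, 7 rose and 4 fell in WT at day 14 (30.3% of all genes passed), and in ATLD 0 rose and 1, Tead4, fell (11.7%). Over the alternatives the WT count of 11 ranged from 6 to 16 and the ATLD count of 1 from 1 to 3. The lowest WT counts, 6 or 7, came without WT day 0 replicate 2 or 3, without WT day 14 replicate 1 or 3, and without the 3 libraries low in GC-rich genes. Ptpn14, a phosphatase gene whose product retains YAP in the cytoplasm, was lower in ATLD at day 14 (log2 -2.80 ± 0.23) and at day 28 (43.9 ± 11.8 against 295 ± 25.2 CPM).

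Actin cytoskeleton and SRF target genes also respond to tension. Of 19, 9 fell and 2 rose in WT at day 14 (median log2 -0.48), and 5 fell and 1 rose in ATLD (median -0.23), against 15.1% of all genes lower in WT and 6.49% in ATLD. The WT count of 11 ranged from 9 to 17 over the alternatives, with 17 without WT day 14 replicate 2. Acta2, the smooth muscle actin gene, fell in WT from 282 ± 13.0 to 10.6 ± 2.34 CPM (log2 -4.73 ± 0.17) and in ATLD from 246 ± 16.0 to 88.6 ± 8.33 (-1.47 ± 0.14). Tagln fell in WT from 25.9 ± 2.94 to 1.19 ± 0.35 CPM. Fhl2, a LIM domain cofactor gene, rose in both, to 58.2 ± 7.63 CPM in WT and 37.9 ± 6.22 in ATLD. Acta2 and Tagln are also on the list of 12 basal and myoepithelial markers, of which 6 fell and 5 rose in WT at day 14 (median log2 -0.13). The contractile genes Acta2, Tagln, Myh11, Cnn1 and Mylk were lower, while the keratin genes carried the summed level from 2291 to 2938 CPM at day 0 to 4209 to 10260 at day 14 (Krt5 from a mean of 909 to 2655 CPM, Krt14 from 1042 to 2910). Their part in the result was not tested. Some genes stand on more than 1 of these lists, among them Pmepa1, Ltbp2 and Ptpn14.

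**Figure D4:**
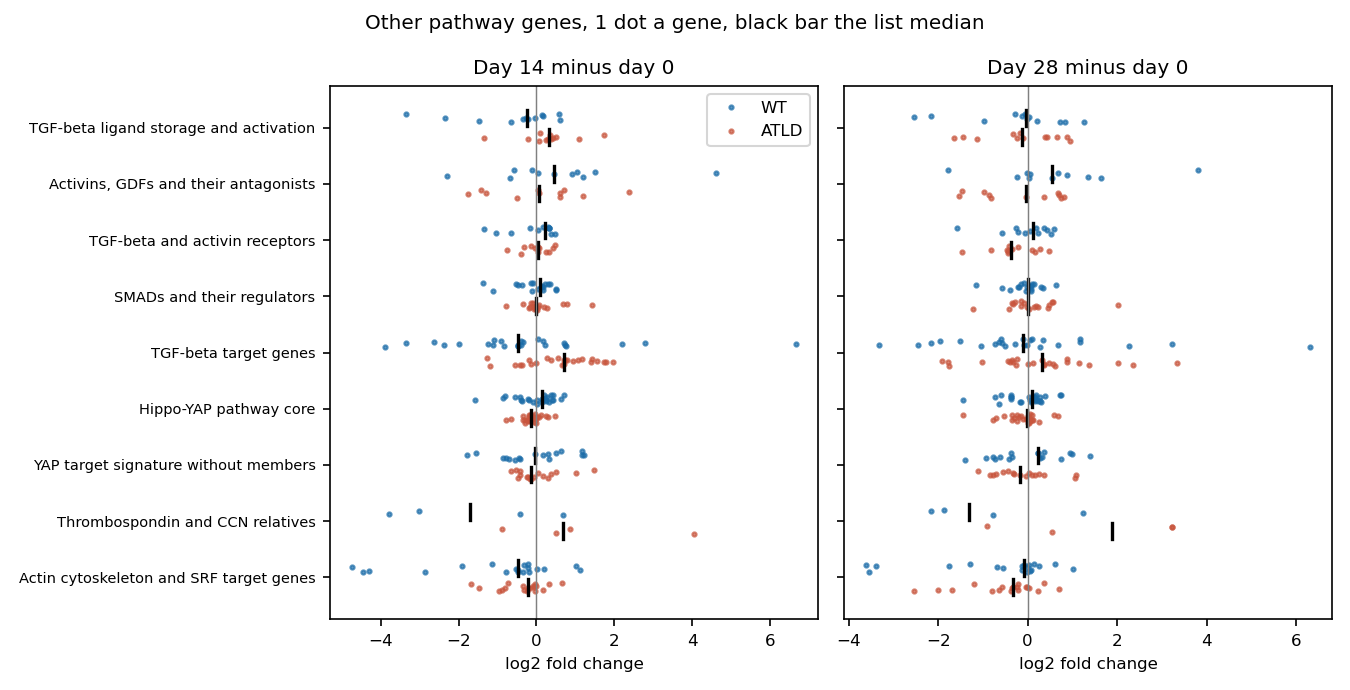
Log2 fold change at day 14 and day 28 against day 0 (x axis) of each gene of 9 lists of related pathway genes (y axis), in WT (blue) and ATLD (red), with the list median as a black bar. The TGF-beta target list has its median at -0.47 in WT and 0.70 in ATLD at day 14, and at -0.102 and 0.315 at day 28. The thrombospondin and CCN list rests on 4 genes.

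Between genotypes on the same day, 5 of the 9 members passed at day 0, 2 higher and 3 lower in ATLD (55.6% of 18844 genes passed, 26.1% higher and 29.5% lower). At day 14 all 9 passed, 5 higher and 4 lower (65.1%, 30.1% higher and 35% lower), and at day 28 the count was 8, 4 in each direction (64.2%, 29.3% higher and 34.9% lower). Groups did not overlap for 7 members at day 0 (66.9% of all genes), 8 at day 14 (66.7%) and 8 at day 28 (71%). At day 0 the share of members that passed was that of all genes. At day 0, Tgfb2 and Ankrd1 were higher and Tgfbr2, Inhba and Ccn2 lower in ATLD. At day 14, Tgfb2, Tgfb3, Ccn1, Ccn2 and Ankrd1 were higher and Tgfb1, Tgfbr2, Inhba and Thbs1 lower, and all 9 passed in the second batch alone too. The WT libraries sequenced beside ATLD were single runs per day, so that comparison takes its spread from the ATLD cultures. The batch term for the members was largest in Tgfb1 (log2 0.80 ± 0.17, second minus first batch, adjusted p = 0.0620) and between -0.16 and 0.24 in the others. It rests on the 3 WT cultures that were sequenced in both batches per the labels. Runs were compared by chi-square per degree of freedom over gene counts, where a larger value is a larger difference. The resequenced WT day 14 run gave 227 against its own original run and 9.97 against replicate 2. At day 0 these values were 54.8 and 16.03, and at day 28 they were 11.6 and 118. In the limma voom fit the correlation of runs of a culture was -0.181. The reason was not tested. The runs of a culture differed in the level of GC-rich relative to GC-poor genes. Original and resequenced values were -0.66 and 0.16 in log2 at WT day 0, -1.21 and 0.44 at day 14, and 0.14 and 0.32 at day 28. The part of this difference in the batch term was not tested.

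**Figure D5:**
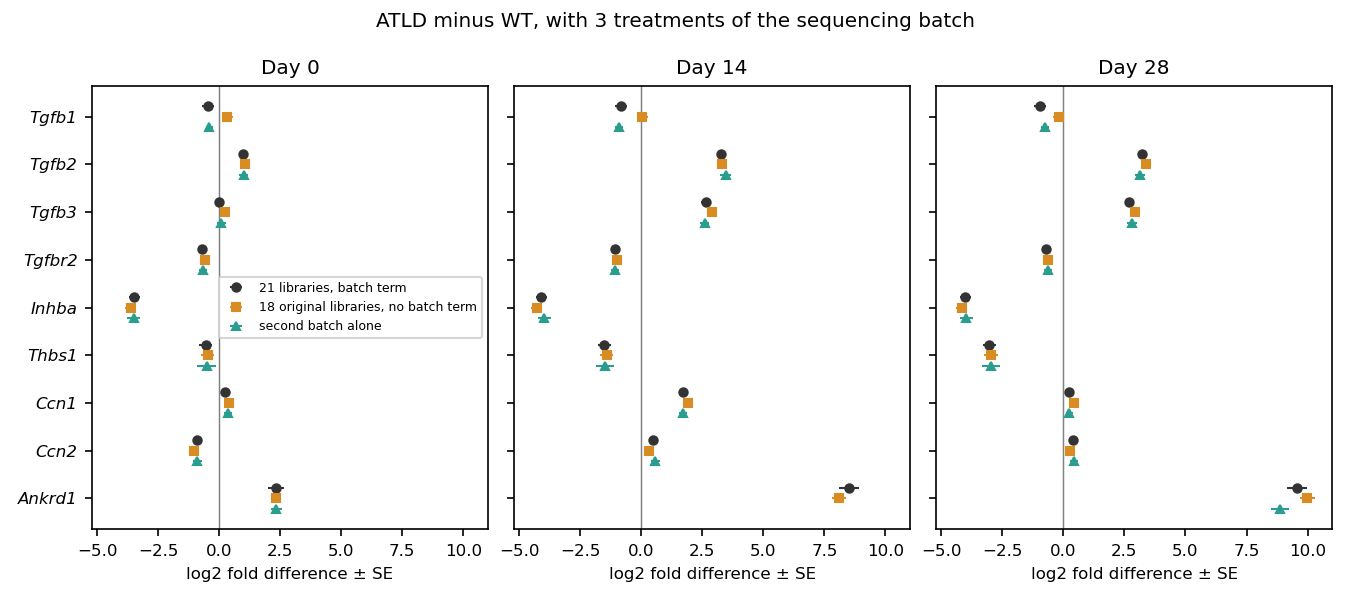
Log2 difference ATLD minus WT ± SE (x axis) of each member (y axis) at days 0, 14 and 28, from all 21 libraries with a batch term (circles), the 18 original libraries with no batch term (squares) and the second batch alone (triangles). The 3 estimates of Tgfb1 spread across 0 at days 0 and 14; the day 14 estimate of Ankrd1 from the second batch lies beyond the axis, since its single WT run had no count.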

How the data were processed

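RNA of 21 libraries was counted by gene by the authors, and the deposited values are raw read counts for 55536 genes; featureCounts, DESeq2 and build mm10 are named in the submitters' processing notes without versions or order. Strand-marking mRNA libraries were made, per the labels' protocols, and the strand setting of the counting is not stated. Gene length in the same table served for CPM per kb. No count column was left unmapped.

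Counts were filtered with filterByExpr (minimum count 10, minimum total 15), scaled by TMM and tested with edgeR 4.0.16 (R 4.3.3) by the quasi-likelihood F test, with Benjamini-Hochberg adjustment over all genes and a threshold of 0.05. Days and genotype by time were fitted on 18 original libraries, with 18684 genes and 12 residual degrees of freedom. Both genotypes and all days shared the same estimate of the spread of a gene. ATLD minus WT was fitted on all 21, adding the batch, with 18844 genes and 14 residual degrees of freedom and treating both runs of a culture as separate. That term passed for 44 genes (4839 at an unadjusted p under 0.05). The prior count was 0.125. Alternatives were other scaling, no filter, DESeq2 1.42.0, limma 3.58.1, each culture left out, a replicate block, GC offsets, other sets of libraries and a prior count of 2. The scripts were tested on simulated data.

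The members, pathway lists, markers and tests were chosen with earlier results of these data known. From each list and comparison, the text names at most 2 genes with the largest rise and 2 with the largest fall, among those past the threshold whose groups do not overlap and whose mean log2 CPM over the 18 original libraries is at least 1. Libraries held at least 30905703 counts. Of the members, Tgfb2 in WT after day 0 rests on 183 to 258 counts per original library and Ankrd1 in WT day 0 on 195 to 287.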

Additional observations from a re-analysis of the deposited data

Results flagged for a closer look

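The effect of time differed between the genotypes for several members, by the genotype by time term of the edgeR quasi-likelihood fit (ATLD change minus WT change, log2 ± SE). At day 14 the term was 2.25 ± 0.17 for Tgfb2, 2.69 ± 0.21 for Tgfb3, 1.504 ± 0.16 for Ccn1, 1.36 ± 0.18 for Ccn2 and 5.77 ± 0.35 for Ankrd1. At day 28 it was 2.31 ± 0.17 for Tgfb2, 2.71 ± 0.21 for Tgfb3, 1.31 ± 0.18 for Ccn2, 7.65 ± 0.37 for Ankrd1 and -2.48 ± 0.37 for Thbs1. Both terms share the day 0 groups. The Ankrd1 terms rest on 13 WT counts at day 14 and 8 at day 28, and their size depends on the prior count.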

How the results depend on the processing

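Of 1736 values of a member under an alternative, 1654 kept their direction and side of the threshold or stayed uncalled, 33 gained a call, 48 lost one and 1 reversed. The reversal is Tgfb1 in ATLD minus WT at day 14, which was 0.0317 with the 18 original libraries and no batch term. Of the members, 1 passed in WT between day 14 and day 28. That count was 0 with no filter, the replicate block, GC offsets with the replicate block, the resequenced runs in place of the originals, the compared groups alone, and without the 3 WT libraries low in GC-rich genes, an alternative chosen after seeing the data. Leaving out a culture gave 0 to 3 there, and 3 to 4 in place of 6 in ATLD at day 14. The cause was not tested. Over all genes, 169 passed in WT between day 14 and day 28, against 304 with DESeq2, 354 with all 21 libraries, 288 with GC offsets, 100 with the replicate block, 94 with resequenced runs, 38 without the 3 libraries, 0 with the compared groups alone (edgeR; 1114 at an unadjusted p under 0.05) and 62 to 3817 without 1 culture, the highest without WT day 14 replicate 2. In ATLD at day 14, 2180 passed, against 3358 with GC offsets, and in ATLD minus WT at day 0, 10483 passed, against 6927 without WT day 0 replicate 1. Same-numbered cultures of a genotype did not deviate together (correlations -0.927 to 0.698 over 18 pairs), so the block is used only among the alternatives. Ankrd1 in WT after day 0 is limited by depth.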
